A study of Mus musculus with 4 samples.

Results

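Cycling epithelial cells of the E17.5 mouse lung were set against non-cycling epithelial cells of the same lungs. A cell counted as epithelial when at least 3 of the 5 genes Epcam, Cdh1, Cldn3, Cldn18 and Krt7 had a UMI (unique molecular identifier, 1 counted RNA molecule) and neither Ptprc, the leukocyte antigen CD45, nor Pecam1, the endothelial antigen CD31, had any. Of these, cells with 2 or more UMIs of Mki67 and Top2a together were taken as cycling and cells with 0 as non-cycling. The rule gave 136 cycling and 1206 non-cycling cells among 1580 epithelial cells, out of 7479 cells of the 3 lungs and 10564 cells of the series. The other 238 epithelial cells had 1 UMI and were left between the classes. Lungs 1, 2 and 3 held 45, 35 and 56 cycling cells, and 445, 300 and 461 non-cycling cells.

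The study profiled the embryonic mouse lung by single-cell RNA sequencing, in 3 wild-type C57BL/6 lungs at E17.5 and in a fibroblast sort at E16.5 that was not used for these comparisons. The lungs were digested with trypsin, collagenase and DNase, red cells were lysed, and live cells were collected by flow cytometry. Both classes come from each lung, so every comparison is made within lungs. Whether the litters were separate is not labelled, and p-values cover only these 3 samples. The spread behind each p is mostly shared over genes, with 2 residual and 16.7 prior degrees of freedom. A gene whose 3 lungs differ widely can thus still have a small p.

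At this stage the distal lung epithelium, built by progenitors that carry Sox9 and Id2, is forming its alveolar cell types. Type 1 cells are flat and form the gas exchange surface, and type 2 cells are compact and make surfactant, the lipid and protein film that keeps air spaces open. A dividing cell copies its DNA in S phase under E2F factors and then raises mitotic genes through the MuvB complex, B-Myb and FoxM1, which act at promoters with a short element called CHR. Mki67 encodes the proliferation antigen Ki-67 and Top2a the topoisomerase that untangles replicated chromosomes. Both peak late in the cycle, so a cell early in S phase can lie outside the cycling class.

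The 3 lungs held 2140 to 2682 cells with a median of 7201 to 8493.5 UMIs per cell. Cycling epithelial cells had a median of 16902, 17529 and 14338 UMIs in lungs 1, 2 and 3, against 9633, 10334 and 8581 in non-cycling cells. A cell with more UMIs has more chances to reach 2, and this gap stands beside every result below. Pairs of lungs shared 9 to 12 cell barcodes, at most 1 of them among epithelial cells. Of the cycling cells 5 (3.68%) were called as doublets from simulated doublet scores, against 9 (0.746%) of the non-cycling cells, and these were kept.

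The genes of the rule describe the classes and were not tested. Mki67 averaged 141 ± 11.7 CPM (a gene's UMIs scaled to the same total in every cell, averaged over the cells of a lung, with the SD over 3 lungs) and Top2a 270 ± 30.4 CPM in cycling cells, and both were 0 in non-cycling cells by construction. Epcam averaged 606 ± 73.9 CPM in cycling and 385 ± 26.3 CPM in non-cycling cells. Cldn18, a claudin that type 1 cells favour, averaged 689 ± 69.9 CPM in cycling and 1149 ± 32.3 CPM in non-cycling cells, and Krt7 averaged 328 ± 48.5 CPM in cycling and 593 ± 36.7 CPM in non-cycling cells. An Epcam UMI was present in 92.9% to 100.0% of cycling cells and in 85.2% to 89.3% of non-cycling cells of a lung. Nkx2-1, the lung epithelial factor, was not part of the rule and was abundant in both classes, with 485 ± 26.5 CPM in cycling and 636 ± 17.0 CPM in non-cycling cells.

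The cycling class made up 7.89% (95% exact binomial interval 5.82% to 10.4%), 8.66% (6.11% to 11.8%) and 9.24% (7.06% to 11.8%) of the epithelial cells of lungs 1, 2 and 3. With every cell thinned to 3000 UMIs before the call, the shares were 2.83%, 3.07% and 2.07%. The size of the share thus moved with depth, and the intervals of the 3 lungs overlapped at either depth. The intervals cover counting error only.

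Genes were tested with limma on log2(mean CPM + 10), with the lung as a block, among 7751 genes that averaged at least 10 CPM, and an adjusted p under 0.05 was called. Of them 950 (12.3%) were higher and 625 (8.06%) lower in cycling cells, or 20.3% in all. The tested genes included 499 under 10 CPM in non-cycling cells and 231 under 10 CPM in cycling cells, which entered through the other class. Among the 7021 genes at 10 CPM or more in both classes, 720 were higher and 566 lower. The median log2 change of all tested genes was 0.03, and 272 of the higher and 56 of the lower genes differed at least 2-fold. These 2-fold counts include genes that entered through 1 class. Of the calls 60.3% were higher, and 52.0% with median-of-ratios scaling. Leaving out lung 1 gave 647 higher and 376 lower genes.

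Genes of the division cycle were the most raised, which follows from the choice of cells by Mki67 and Top2a and describes the class. All 53 tested genes of the G2 and M phase list (54 listed) were called higher, with a median log2 change of 2.38, and 32 of 36 tested S phase genes (45 listed) were called higher, with a median of 1.33. Of these, 30 G2 and M phase genes and 16 S phase genes averaged under 10 CPM in non-cycling cells, so they entered the test through the cycling cells. Among the genes at 10 CPM or more in both classes, 23 of 23 of G2 and M phase and 17 of 20 of S phase were called higher.

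Ube2c, the ubiquitin-conjugating enzyme of mitotic exit, had 944, 686 and 591 CPM in cycling cells, against 31.9, 34.5 and 53.5 CPM in non-cycling cells. Cdk1, the kinase that starts mitosis, had 396, 288 and 232 CPM in cycling cells, against 14.7, 12.2 and 15.7 CPM in non-cycling cells. Both were many times higher in every lung, with log2 changes of 3.91 (SE 0.16) and 3.67 (SE 0.16), and so were the spindle protein Nusap1 (3.93, SE 0.16) and the kinetochore protein Cenpf (3.52, SE 0.15). In S phase, Rrm2 and Rrm1 encode the subunits of ribonucleotide reductase, which supplies DNA building blocks. Rrm1 had 93.7, 111 and 118 CPM in cycling cells, against 15.6, 16.9 and 13.5 CPM in non-cycling cells (log2 change 2.21, SE 0.16). Rrm2 had a log2 change of 2.55 (SE 0.19) and was higher in 3 of 3 lungs, so cells chosen by late markers also carried S phase transcripts in each lung. Tyms, which makes thymidylate, had a log2 change of 2.19 (SE 0.15).

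The promoters of 3 mitotic genes and 1 S phase gene are shown as examples of genes that rose and whose promoters carry the elements named above; other genes that rose lack some or all of them. Each is the RefSeq window on GRCm38.p6 from 250 bases before to 50 after the annotated start, written 5′ to 3′ on the strand of the gene. Capitals mark TTTGAA or its reverse TTCAAA (the core of the CHR), CCAAT or its reverse ATTGG (the NF-Y box), and the E2F letters TTGGCGC or TTCCCGC on either strand.
Ube2c (chr2:164769679-164769978, forward strand): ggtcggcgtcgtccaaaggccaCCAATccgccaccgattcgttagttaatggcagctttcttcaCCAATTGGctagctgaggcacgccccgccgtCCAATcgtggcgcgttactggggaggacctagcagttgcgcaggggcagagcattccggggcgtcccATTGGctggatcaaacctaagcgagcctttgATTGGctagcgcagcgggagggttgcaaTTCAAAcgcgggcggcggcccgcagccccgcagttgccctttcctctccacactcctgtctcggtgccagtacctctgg
Cdk1 (chr10:69352863-69353162, reverse strand): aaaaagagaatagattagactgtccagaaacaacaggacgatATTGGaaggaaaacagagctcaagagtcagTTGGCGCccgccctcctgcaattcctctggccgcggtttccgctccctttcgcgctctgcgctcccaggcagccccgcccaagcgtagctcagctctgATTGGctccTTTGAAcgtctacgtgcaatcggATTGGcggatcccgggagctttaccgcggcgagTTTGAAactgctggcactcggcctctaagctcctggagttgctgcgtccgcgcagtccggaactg
Cenpf (chr1:189688037-189688336, reverse strand): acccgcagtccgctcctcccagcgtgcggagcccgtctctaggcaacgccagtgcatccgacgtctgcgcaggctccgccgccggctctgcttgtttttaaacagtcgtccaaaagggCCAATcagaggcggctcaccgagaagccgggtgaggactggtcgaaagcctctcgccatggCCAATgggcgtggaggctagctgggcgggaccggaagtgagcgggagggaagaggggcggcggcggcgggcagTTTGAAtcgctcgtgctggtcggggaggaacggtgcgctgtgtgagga
Rrm1 (chr7:102441445-102441744, forward strand): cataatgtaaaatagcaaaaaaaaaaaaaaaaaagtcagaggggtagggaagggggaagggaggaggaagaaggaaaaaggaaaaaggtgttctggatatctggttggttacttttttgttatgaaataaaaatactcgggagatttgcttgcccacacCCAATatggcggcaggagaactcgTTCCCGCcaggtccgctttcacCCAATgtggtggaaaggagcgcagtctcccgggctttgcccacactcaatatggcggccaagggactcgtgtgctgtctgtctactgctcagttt
The CHR letters stood once in Ube2c and Cenpf and 2 times in Cdk1. Rrm1 held none of them and 1 E2F match, and Cdk1 also held 1 E2F match. CCAAT letters stood 6 times in Ube2c, where a pair of them overlap, 3 times in Cdk1 and 2 times each in Cenpf and Rrm1. Nusap1 and Tyms, which rose as well, held none of these letters in the window. Rrm2 held 1 CCAAT match alone, and the mitotic cyclin Ccnb1 held no CHR letters, 2 CCAAT matches and 1 E2F match.

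Over the lists, 69.6% of the 46 G2 and M phase genes with a promoter in the table held the CHR letters, compared with 18.2% of 33 S phase genes, 14.1% of 5989 tested genes and 20.2% of all 27025 genes in the table. The E2F letters stood in 15.2% of the G2 and M phase genes, 57.6% of the S phase genes, 15.4% of the tested genes and 7.79% of all genes. CCAAT stood in 76.1% of the G2 and M phase genes, 69.7% of the S phase genes, 43.0% of the tested genes and 41.1% of all genes. A match of letters describes the window and is not a bound site.

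Chromatin and cytoskeleton genes rose with the cycle genes. Of 65 replication-dependent histone genes 14 passed the filter and 11 were called higher, led by Hist1h2ap with 1595, 1175 and 238 CPM in cycling cells, against 46.8, 50.1 and 11.9 CPM in non-cycling cells (log2 change 4.21, SE 0.17). Among the 9 histone genes at 10 CPM or more in both classes 6 were called higher, and the other 5 entered the test through the cycling cells. Lung 3 had the lowest Hist1h2ap level in both classes, and near-identical histone copies share reads, so the split between them is uncertain. Of 19 tested chromatin genes (20 listed) 16 were called higher. The histone variant H2afz averaged 2709 ± 89.4 CPM in cycling and 717 ± 56.7 CPM in non-cycling cells, H2afx, the variant marked at DNA breaks, averaged 328 ± 41.6 CPM in cycling and 47.5 ± 3.40 CPM in non-cycling cells, and the Polycomb methyltransferase Ezh2 averaged 101 ± 8.41 CPM in cycling and 24.3 ± 2.51 CPM in non-cycling cells. Of 14 genes of microtubules and the nuclear envelope 12 were called higher, among them the tubulins Tuba1b (log2 change 2.53) and Tubb5 (2.41), the microtubule destabiliser Stmn1 (2.13) and lamin B1, Lmnb1 (2.48). At 10 CPM or more in both classes, 13 of 16 chromatin genes and 11 of 13 of these were called higher. Over all tested genes 12.3% were higher.

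Outside the cycle and histone lists, the largest rise was that of 2810417H13Rik, the gene of the PCNA-associated factor Pclaf, with 509.7, 386 and 466 CPM in cycling cells, against 17.6, 15.7 and 24.6 CPM in non-cycling cells (log2 change 3.99, SE 0.13). The next were Pbk, Smc2, Racgap1, Prc1, Kif22, Spc25, Kif20a, Kpna2 and Lockd, with log2 changes between 2.57 and 3.45. Of these, Pbk, Prc1, Kif22, Spc25 and Kif20a averaged 4.63 to 6.76 CPM in non-cycling cells, so they entered the test through the cycling cells. Smc2 is a condensin subunit, Racgap1, Prc1 and Kif20a act at the central spindle, and Spc25 sits at the kinetochore. The choice of cells by Mki67 and Top2a favours cycle genes such as these, so the 12 largest rises describe the class. They held no gene of the alveolar type 1 and type 2 lists. Those lists held only 32 and 28 of the 7751 tested genes, so this absence says little about them.

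Type 1 genes were lower in cycling cells. All 32 genes of the alveolar type 1 list passed the filter. Of them 28 were called lower and 1 higher, beside 8.06% and 12.3% of all tested genes. The median log2 change was −1.04, beside 0.03 over all tested genes. At 10 CPM or more in both classes 27 of 31 were lower and 1 higher, and the other 1 entered the test through the non-cycling cells. Ager, the receptor for glycation end products and a leading type 1 marker, had 1561, 1516 and 1086 CPM in cycling cells, against 3356, 3288 and 3892 CPM in non-cycling cells. Every cycling value lay below every non-cycling value, with a log2 change of −1.35 (SE 0.10, limma adjusted p = 2.93e-09). The water channel Aqp5 had 22.9, 47.6 and 17.7 CPM in cycling cells, against 159.8, 165 and 205 CPM in non-cycling cells, the largest called fall outside the cycle and histone lists (log2 change −2.31, SE 0.19, limma adjusted p = 2.00e-08).

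Emp2, a membrane protein of type 1 cells, had 541, 424 and 328 CPM in cycling cells, against 1006, 961 and 1225 CPM in non-cycling cells (log2 change −1.30, SE 0.12). The chloride channel family gene Clic5 had 44.9, 56.2 and 39.8 CPM in cycling cells, against 146, 164 and 181 CPM in non-cycling cells (log2 change −1.61, SE 0.14). Gprc5a, a receptor induced by retinoic acid, had 327, 299.8 and 220.3 CPM in cycling cells, against 674, 689 and 864 CPM in non-cycling cells (log2 change −1.37, SE 0.12). In all 3 the classes did not overlap, and the cycling cells of lung 3 were lowest while the non-cycling cells of lung 3 were highest. The caveolins Cav1 and Cav2 fell by 1.19 and 0.99 on the log2 scale, Vegfa, a type 1 signal to capillaries, by 1.07, and the anchoring protein Akap5, the small heat shock protein Cryab and the protease inhibitor Timp3 by 1.32, 1.32 and 1.23.

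Hopx, a homeodomain protein of type 1 cells, had 176, 367 and 256 CPM in cycling cells, against 239, 618 and 761 CPM in non-cycling cells. Its values overlapped across lungs, lung 1 was lowest in both classes, and within lungs it was lower in 3 of 3 (log2 change −0.90, SE 0.14, limma adjusted p = 9.96e-05). Without the lung as a block its adjusted p was 0.137. The 1 list gene that rose was Igfbp2, which binds insulin-like growth factors, with 238 ± 59.2 CPM in cycling and 131 ± 24.9 CPM in non-cycling cells (log2 change 0.81). Sema3e, Fstl3 and Qsox1 were not called, with log2 changes of −0.16, −0.46 and 0.31.

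With non-cycling cells weighted to the UMI depth of the cycling cells of their lung, 23 type 1 genes were lower (median −0.79). The deepest of 5 depth bins held 7, 13 and 8 non-cycling cells, so the weight of that bin rests on few cells. With cycling called after thinning to 3000 UMIs, which left 17, 12 and 12 cycling cells, 13 were lower (median −0.80). The non-cycling class then held 516, 349 and 520 cells, some with Mki67 or Top2a UMIs before thinning. Levels in this setting came from the unthinned counts, and its thinning was a random draw separate from that of the shares. With Epcam and Cdh1 alone as the epithelial genes, so that Cldn18 and Krt7 play no part, 25 were lower (median −0.90).

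Type 2 genes fell less uniformly. Of 30 listed genes 28 were tested and 16 were called lower, with a median log2 change of −0.42. Over all tested genes 8.06% were lower, with a median of 0.03. None was called higher by limma, none rose at an unadjusted p under 0.05, and edgeR called 0 higher and 21 lower. Surfactant protein C, Sftpc, had 45582, 33691 and 55759 CPM in cycling cells, against 53655, 42024 and 48346 CPM in non-cycling cells. The values overlapped, lung 3 went the other way from lungs 1 and 2, and the change was not called (log2 change −0.12, SE 0.06, limma adjusted p = 0.186). Without lung 3 it was −0.28 and called (limma adjusted p = 3.15e-07).

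Sftpb, which is needed to pack and spread surfactant, had 2986, 1815 and 2920 CPM in cycling cells, against 3719, 3005 and 3282 CPM in non-cycling cells (log2 change −0.40, SE 0.07, limma adjusted p = 0.000512). The values did not overlap, and without the lung as a block the adjusted p was 0.13. Lyz1, a lysozyme, had 144, 36.9 and 239.8 CPM in cycling cells, against 562, 342 and 391 CPM in non-cycling cells (log2 change −1.83, SE 0.23, limma adjusted p = 8.66e-06). The cycling cells of lung 2 were far lower than those of lungs 1 and 3, DESeq2 gave an adjusted p of 0.20, and reads can be shared with the near copy Lyz2, which was not called (log2 change −0.22). Cxcl15, the lung chemokine lungkine, had 741, 275 and 823 CPM in cycling cells, against 1232, 826 and 1247 CPM in non-cycling cells (log2 change −0.96, SE 0.12). It too was lowest in the cycling cells of lung 2.

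Lipid and protein processing genes of type 2 cells fell as well. Scd1, which desaturates fatty acids, had 44.6, 16.7 and 90.3 CPM in cycling cells, against 142, 66.1 and 126 CPM in non-cycling cells, lower within each lung although the values overlap across lungs (log2 change −1.14, SE 0.18). Fasn, the fatty acid synthase, fell by 0.60 and was lower in 2 of 3 lungs, with 52.6, 30.6 and 101 CPM in cycling cells, against 101, 71.7 and 97.9 CPM in non-cycling cells. The phosphate carrier Slc34a2 fell by 0.79, and Napsa and Ctsh, proteases that process surfactant proteins, by 0.62 and 0.27. Chil1, a chitinase-like protein, fell by 1.29, and the collectin Sftpa1 by 0.45, though Sftpa1 was not called without lung 2. Lpcat1, which makes surfactant phosphatidylcholine, Abca3, the lipid pump of lamellar bodies, and the transcription factor Cebpa were not called, with log2 changes of −0.15, −0.14 and −0.07.

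The number of type 2 genes called lower moved with the definition of cycling. It was 3 at 1 or more UMIs (median −0.07), 22 at 4 or more (median −0.72) and 24 after thinning (median −1.16), where Sftpc was called with a log2 change of −0.84 and 1 gene was higher. Without the lung as a block it was 7.

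Early distal genes did not move together. Of 24 listed genes 20 were tested, 1 was called higher and 2 lower, and the median log2 change was 0.02, beside 0.03 over all tested genes. Over all tested genes 12.3% were higher and 8.06% lower. Sox9, the factor of distal tip progenitors, had 110.5, 102 and 127 CPM in cycling cells, against 70.0, 76.8 and 79.7 CPM in non-cycling cells. The values did not overlap (log2 change 0.52, SE 0.13, limma adjusted p = 0.00717). The call was lost without lung 1 (limma adjusted p = 0.059) and with depth-weighted non-cycling cells (log2 change 0.22, limma adjusted p = 0.29), and after thinning the log2 change was −0.07.

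Id2, an inhibitor of basic helix-loop-helix factors in the same progenitors, had 761, 725 and 1028 CPM in cycling cells, against 688, 706 and 738 CPM in non-cycling cells. It was higher within 3 of 3 lungs and not called (log2 change 0.22, SE 0.08, limma adjusted p = 0.0749), and it was called without lung 2 (log2 change 0.31, limma adjusted p = 0.041). Etv5, a factor that answers FGF signals, had 249, 182 and 249 CPM in cycling cells, against 197, 196 and 178 CPM in non-cycling cells, with lung 2 going the other way (log2 change 0.23, limma adjusted p = 0.197). Dlk1, an imprinted Notch-related ligand and the most abundant gene of the list, averaged 2804 ± 508 CPM in cycling and 2762 ± 391 CPM in non-cycling cells (log2 change 0.02), and with depth-weighted non-cycling cells its log2 change was −0.16 and called. Foxp1, Foxp2 and Fgfr2 were not called, with log2 changes of 0.09, 0.02 and −0.07. Dusp6, a phosphatase induced by FGF signals, fell by 0.59 and lost the call without lung 2, and Gata6, a factor of alveolar maturation, fell by 0.39 and lost the call without any of the 3 lungs.

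**Figure D1:**
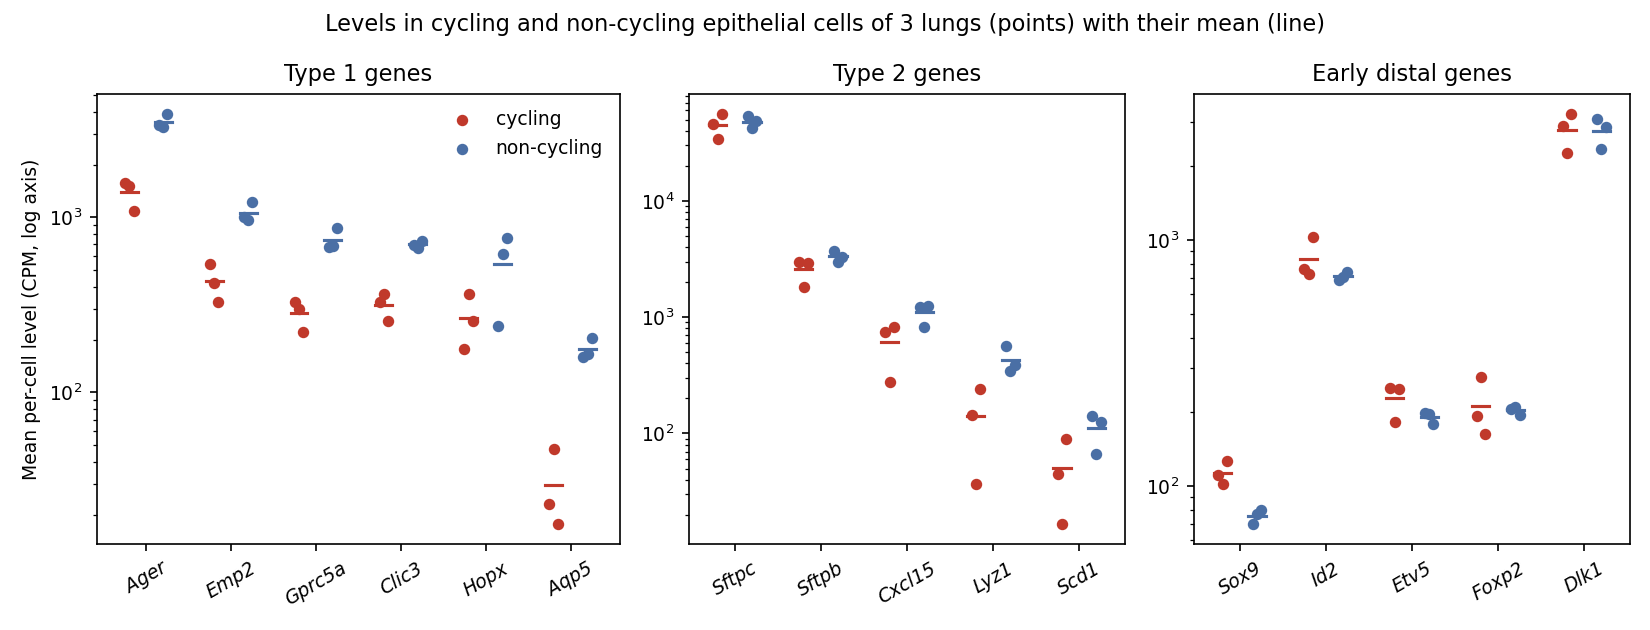
Mean per-cell level (CPM, log axis) of alveolar type 1, type 2 and early distal genes in cycling (red) and non-cycling (blue) epithelial cells, with 1 point per lung and a line at the mean of 3 lungs. Ager lay at 1086 to 1561 CPM in cycling cells against 3288 to 3892 CPM in non-cycling cells, Sftpc overlapped between classes, and Sox9 lay at 102 to 127 CPM in cycling cells against 70.0 to 79.7 CPM in non-cycling cells.

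The plot of levels gives the lungs one by one, and the plot of changes by list gives every tested member of 14 lists. There the cycle lists stand highest, 30 of the 32 type 1 genes lie below 0, and the early distal genes lie on both sides of 0.

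**Figure D2:**
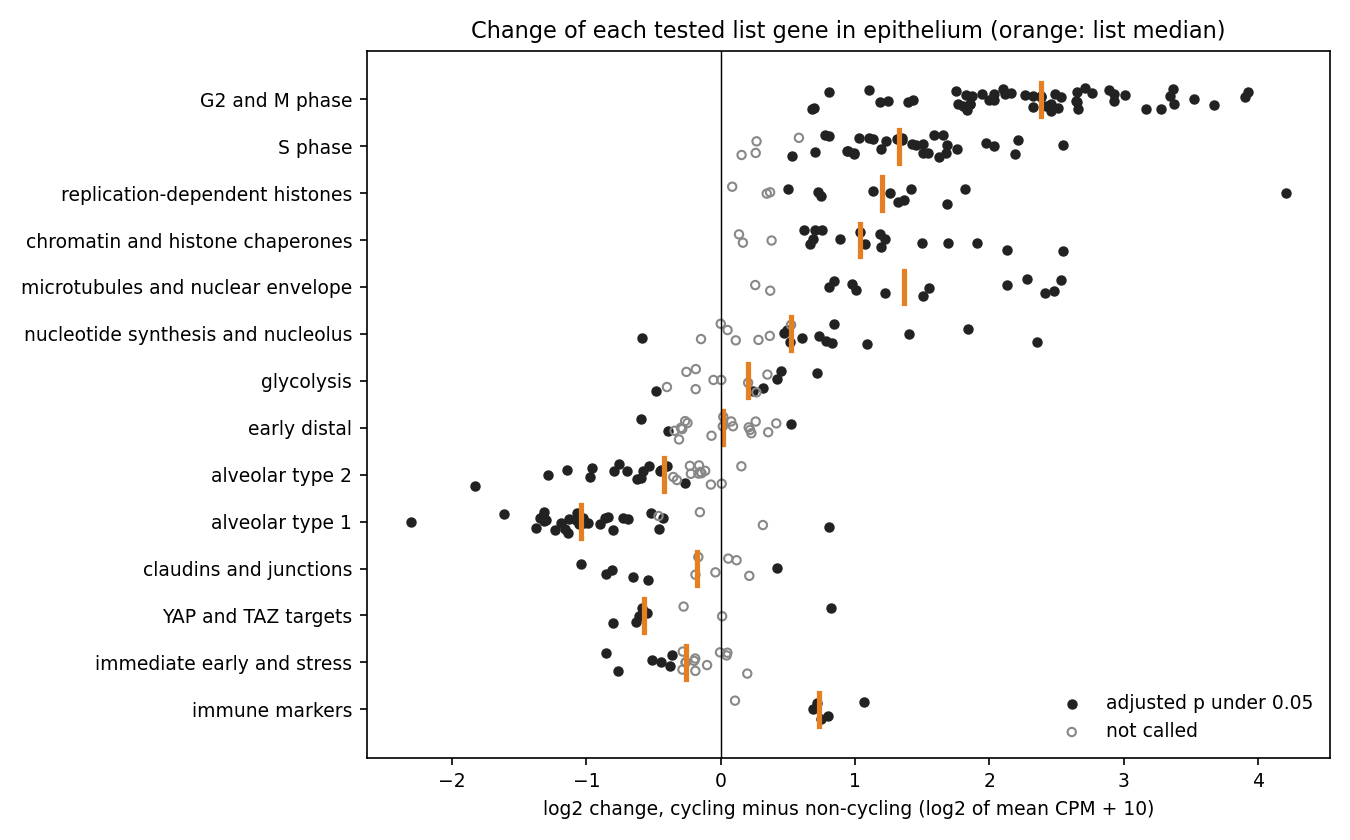
Change of each tested gene of 14 lists, as log2(mean CPM + 10) of cycling minus non-cycling epithelial cells, with filled points for an adjusted p under 0.05, open points for genes not called and an orange bar at the list median. The median is 2.38 for the G2 and M phase list, −1.04 for the type 1 list, −0.42 for the type 2 list and 0.02 for the early distal list.

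The number of Mki67 and Top2a UMIs in a cell, which the rule used, orders the cells further, and the values by band are a description. The summed level of the type 1 list averaged 11122 CPM in cells with 0 UMIs, 8227 CPM in the 238 cells with 1, just outside the cycling class, and 5263 CPM in the 38 cells with exactly 2, just inside it. Over all cycling cells the type 1 sum was 5312, 5602 and 4045 CPM in lungs 1, 2 and 3, against 10294, 10599 and 12473 CPM in non-cycling cells. The type 2 sum without Sftpc was 12044, 8313 and 13530 CPM in cycling cells, against 16316, 13799 and 15747 CPM in non-cycling cells.

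Within the cycling cells the mean type 1 sum was 4759 CPM for 2 to 3 UMIs (56 cells), 5390 CPM for 4 to 7 (41 cells) and 4937 CPM for 8 or more (39 cells, SD 1906). The lungs went different ways, with 4500, 5724 and 7117 CPM in these bands of lung 2, 4253, 4050 and 3586 CPM in lung 3, and 5524, 6397 and 4109 CPM in lung 1. The type 2 sum without Sftpc was 14320, 10139 and 7942 CPM in these bands, lower in each higher band. The early distal sum was 5534, 5447 and 4486 CPM. It was 5228, 4555 and 5836 CPM in all cycling cells of lungs 1, 2 and 3, against 5326, 4592 and 5128 CPM in non-cycling cells.

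**Figure D3:**
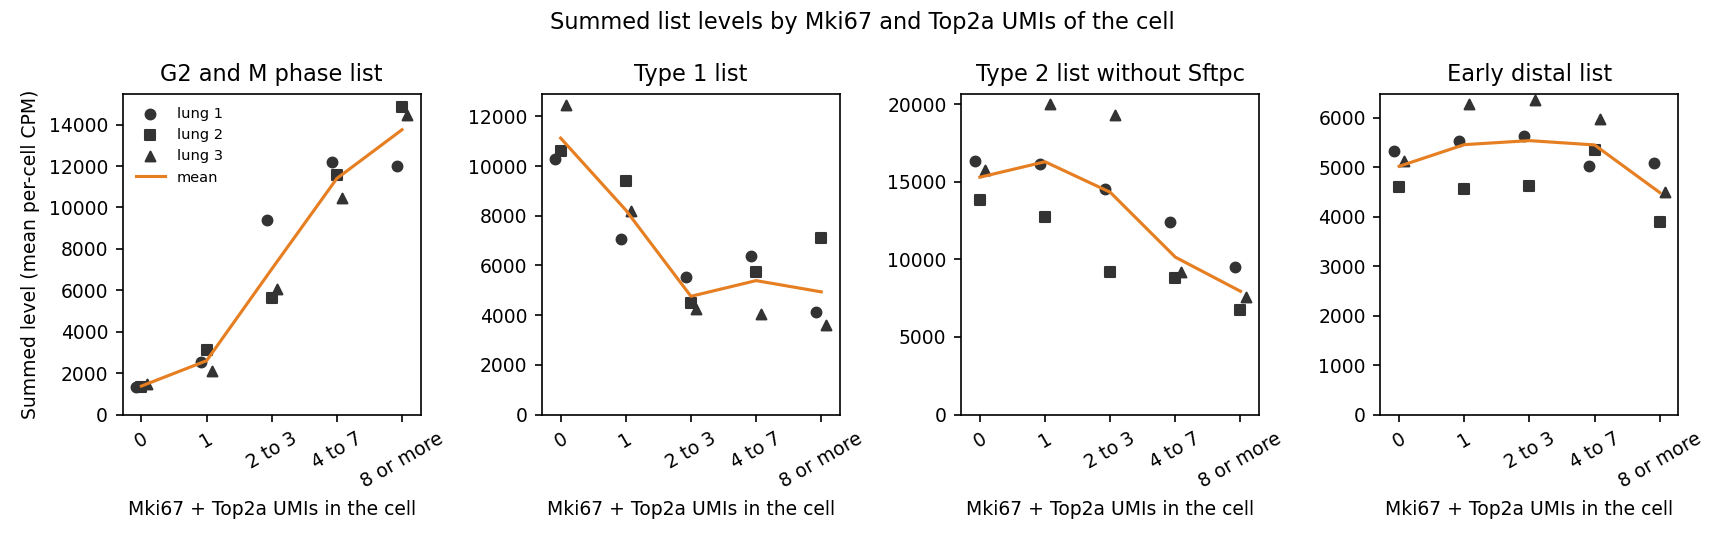
Summed level of 4 gene lists (mean per-cell CPM) by the number of Mki67 and Top2a UMIs in the cell, with a symbol per lung and a line at the mean of 3 lungs. The type 1 sum is 11122 CPM at 0 UMIs and 4759 CPM at 2 to 3 UMIs, the type 2 sum without Sftpc is 15287 CPM at 0 UMIs and 7942 CPM at 8 or more, and the mean early distal sum lies between 4486 and 5534 CPM.

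Cells were next placed singly. Every cell was thinned to 3000 UMIs, which left out 2 cycling and 41 non-cycling cells, and the number of 10 core type 2 genes with a UMI was taken from the number of 10 core type 1 genes with a UMI. A difference of 2 or more is called the type 1 range here, and −2 or less the type 2 range. In the type 1 range lay 26.7%, 37.1% and 20.4% of cycling cells of lungs 1, 2 and 3, against 42.3%, 49.3% and 48.1% of non-cycling cells. The share was lower in cycling cells in 3 of 3 lungs, by a mean of 18.5 percentage points (SD 8.15), with differences of −13.9 to −21.6 when each lung was left out. An exact sign-flip test on 3 pairs cannot go below p = 0.25, so no p is given.

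In the type 2 range lay 57.8%, 31.4% and 53.7% of cycling cells, against 42.3%, 35.8% and 40.7% of non-cycling cells. This share was higher in cycling cells in lungs 1 and 3 and lower in lung 2 (difference 8.05 points, SD 10.8). With a cut of 3 the difference was 1.97 points, and after thinning to 5000 UMIs it was 5.92 points and higher in 3 of 3 lungs. The mean number of core type 2 genes was 4.38, 3.14 and 4.70 in cycling cells, against 4.47, 3.92 and 4.36 in non-cycling cells. Since 16 of 28 tested type 2 genes were called lower in cycling cells and none higher, no lean to type 2 is read from this share. Between the ranges lay 24.3 ± 8.06% of cycling and 13.9 ± 2.31% of non-cycling cells, higher in cycling cells in 3 of 3 lungs.

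Cells with 2 or more of 10 core early distal genes made up 65.2 ± 3.91% of cycling and 62.3 ± 3.16% of non-cycling cells, a difference of 2.92 points (SD 5.78) that was −0.41 points without lung 1. With 3 or more of these genes the shares were 37.0 ± 2.40% of cycling and 28.4 ± 1.42% of non-cycling cells, higher in cycling cells in 3 of 3 lungs. After thinning to 2000 UMIs instead, the differences were 11.6 points for 2 or more genes and 8.67 points for 3 or more. After thinning to 5000 UMIs they were 3.70 and 9.21 points. At both of these depths the shares were higher in cycling cells in 3 of 3 lungs. The mean number of core early distal genes was 2.22, 1.86 and 2.04 in cycling cells, against 1.86, 1.99 and 1.90 in non-cycling cells, and these overlapped.

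Counted the other way round, cycling cells made up 5.45%, 6.99% and 4.37% of the cells in the type 1 range of lungs 1, 2 and 3. They made up 10.2%, 7.80% and 11.6% in the type 2 range, and 7.69%, 17.2% and 17.9% between the ranges. The exact binomial intervals of the type 1 and type 2 ranges overlapped in lungs 1 and 2, and in lung 3 they were 2.20% to 7.68% and 7.91% to 16.2%. The ranges are cuts in a continuous count, with 6 cycling cells at 2 and 7 at 1, and 13 at −2 and 11 at −1. As a background, immune cells of the same lungs held 0.585 to 0.722 core type 1 and 1.01 to 1.18 core type 2 genes after the same thinning. Cycling cells held 2.76 to 3.37 core type 1 and 3.14 to 4.70 core type 2 genes, and non-cycling cells held 4.26 to 4.82 and 3.92 to 4.47.

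**Figure D4:**
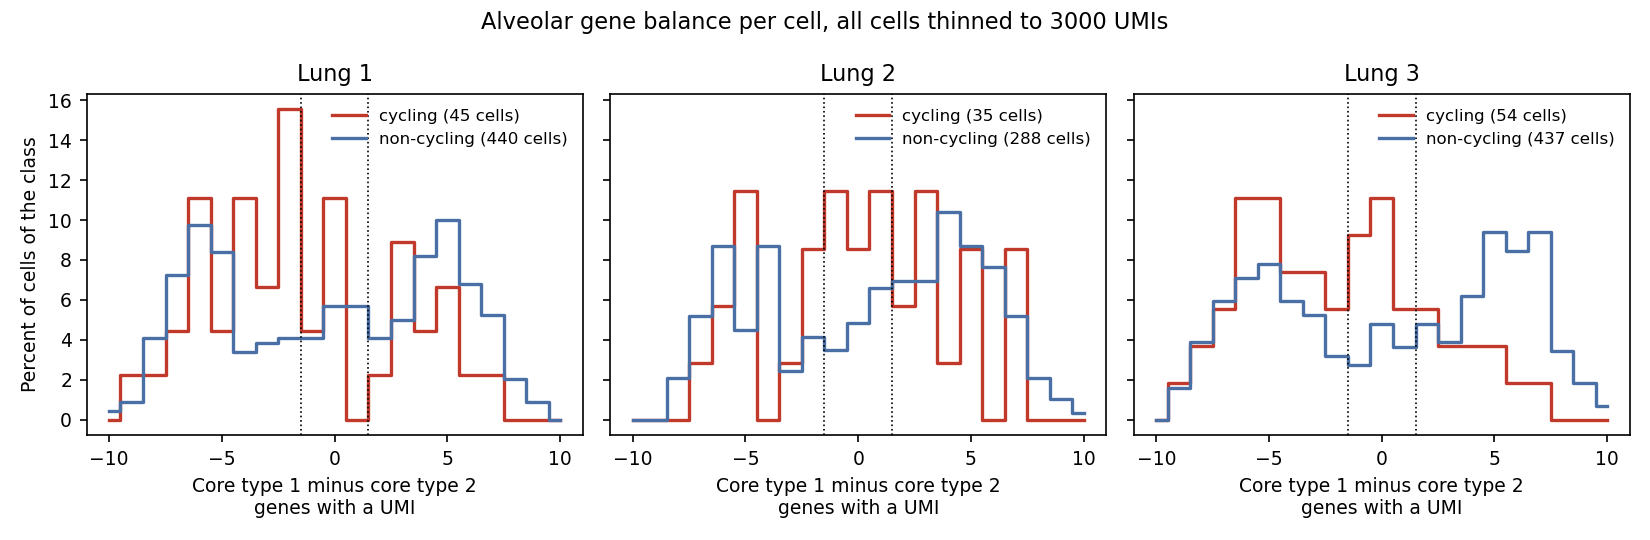
Number of core type 1 genes minus number of core type 2 genes with a UMI per cell (x axis), as percent of the cells of each class (y axis), after thinning to 3000 UMIs, in 3 panels for the 3 lungs. Dotted lines bound the ranges, and the type 1 range on the right holds 26.7%, 37.1% and 20.4% of cycling cells, against 42.3%, 49.3% and 48.1% of non-cycling cells.

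Genes that hold cells out of the cycle went both ways, with more called lower than higher. Of 21 listed genes 15 were tested, 3 were called higher and 6 lower, beside 12.3% and 8.06% of all tested genes. Cdkn2c entered the test through the cycling cells, and at 10 CPM or more in both classes 2 of 14 were higher and 6 lower. Cdkn2c, which encodes the CDK4 and CDK6 inhibitor INK4C, had 47.9, 50.1 and 63.7 CPM in cycling cells, against 4.32, 2.69 and 3.57 CPM in non-cycling cells (log2 change 2.23, SE 0.19). Cdkn2d, which encodes its relative INK4D, had 66.5, 73.2 and 53.2 CPM in cycling cells, against 17.9, 22.2 and 24.3 CPM in non-cycling cells (log2 change 1.24, SE 0.17). These inhibitors were higher in cycling cells of every lung, and Cdkn1c, of the other inhibitor family, was also called (0.29). Cdkn2b fell by 0.83, Gadd45a and Gadd45g, which answer stress, by 0.80 and 0.77, Foxo3 by 0.57, and the antiproliferative genes Btg1 and Btg2 by 0.33 and 0.32. Cdkn2b was not called without lung 1. Cdkn1a averaged 99.3 ± 7.19 CPM in cycling and 102 ± 6.70 CPM in non-cycling cells and was not called, nor was Cdkn1b (log2 change 0.31).

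Among 11 tested genes of G1 cyclins, kinases and E2F, 3 were called higher and 1 lower, beside 12.3% and 8.06% of all tested genes. E2f1, Cdk2 and Cdk4 had log2 changes of 0.73, 0.62 and 0.45, of which E2f1 was not called without lung 1 and Cdk2 not without lung 2 or lung 3. Ccnd2, a D-type cyclin, averaged 71.2 ± 6.68 CPM in cycling and 140.3 ± 30.9 CPM in non-cycling cells, with no overlap between lungs (log2 change −0.87). Ccnd1, Ccnd3, Cdk6 and Myc were not called, with log2 changes of 0.32, 0.10, −0.10 and 0.02.

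Biosynthesis genes rose in part, beside 12.3% of all tested genes called higher and 8.06% lower. Of 20 genes of nucleotide synthesis and the nucleolus 12 were called higher and 1 lower, led by the thymidine kinase Tk1 (log2 change 2.36, SE 0.18) and the dUTPase Dut (1.84, SE 0.15). Nop56 and Nop58, of the nucleolar particles that modify RNA, had 0.85 and 0.83, while the folate enzyme Mthfd1 fell by 0.59. At 10 CPM or more in both classes 10 of 18 were higher and 1 lower. Of 15 tested glycolysis genes (16 listed) 5 were called higher and 1 lower, or 4 of 14 higher and 1 lower at 10 CPM or more in both classes. Gapdh averaged 1378 ± 153 CPM in cycling and 1102 ± 56.0 CPM in non-cycling cells (log2 change 0.32), and the aldolase Aldoa averaged 262 ± 58.8 CPM in cycling and 365 ± 31.4 CPM in non-cycling cells (log2 change −0.48).

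Genes of epithelial structure were mostly lower where they were called. Of 12 claudin and junction genes 5 were lower and 1 higher, beside 8.06% and 12.3% of all tested genes. Cldn4 had 65.0, 70.1 and 81.3 CPM in cycling cells, against 159, 159 and 158 CPM in non-cycling cells (log2 change −1.04, SE 0.13). The scaffold Tjp1 fell by 0.81, the polarity gene Pard6b by 0.86, the adhesion molecule F11r by 0.54 and occludin, Ocln, by 0.65, with the Ocln call lost without lung 2 or lung 3, and the embryonic claudin Cldn6 had a log2 change of 0.42. Of 3 tested keratins (5 listed) Krt19 and Krt18 fell by 0.94 and 0.57, and Krt8 was not called (−0.22).

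Of 14 tested epithelial transcription factors (17 listed) Nkx2-1 fell by 0.39, Elf3 by 0.62 and Klf5 by 0.40, and Nfib was higher (0.38). Over all tested genes 8.06% were lower and 12.3% higher. The Nkx2-1 call was lost with depth-weighted non-cycling cells (log2 change −0.20), the Nfib call without any of the 3 lungs, the Klf5 call without lung 2 or lung 3 and the Elf3 call without lung 1. Foxa1, Foxa2 and Elf5 were not called, with log2 changes of 0.03, −0.01 and −0.05.

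Of 8 tested targets of YAP and TAZ (9 listed), which report mechanical and density signals, 5 were lower and 1 higher, with a median log2 change of −0.57. Over all tested genes 8.06% were lower and 12.3% higher, with a median of 0.03. Ctgf fell by 0.80, Ajuba by 0.63, Amotl2 by 0.61, Tgfb2 by 0.59 and Cyr61 by 0.55, and the receptor kinase Axl had a log2 change of 0.82. Ctgf averaged 9.28 CPM in cycling cells, so it entered the test through the non-cycling cells. At 10 CPM or more in both classes 4 of 7 of these targets were lower and 1 higher. Without lung 1 the list had 3 genes lower, and without lung 3 it had 2.

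Among the 12 largest falls outside the cycle lists were also genes of no list. The surface protein mesothelin, Msln, had 53.5, 88.2 and 87.2 CPM in cycling cells, against 286, 317 and 383 CPM in non-cycling cells (log2 change −1.99, SE 0.12). Retnla, a secreted resistin-like protein, had 269.7, 107 and 377 CPM in cycling cells, against 1094, 622 and 700.1 CPM in non-cycling cells (log2 change −1.76, SE 0.17). Igfbp6, which binds insulin-like growth factors, fell by 1.75 and the mitochondrial quality kinase Pink1 by 1.38. In these 4 genes no cycling value reached a non-cycling one. Phgr1, Dpep1, a membrane dipeptidase, and the tetraspanin Tspan2 fell by 1.38, 1.37 and 1.32. Phgr1 and Dpep1 averaged 8.52 and 6.81 CPM in cycling cells, so they entered the test through the non-cycling cells.

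Markers of other cells moved as well. Of 6 tested immune markers (8 listed) 5 were called higher in cycling cells, beside 12.3% of all tested genes. Fcer1g, an Fc receptor chain of myeloid cells, had 109, 148 and 129 CPM in cycling cells, against 69.2, 55.0 and 45.0 CPM in non-cycling cells (log2 change 1.07, SE 0.15), and Coro1a, Cd52, Laptm5 and Tyrobp had 0.80, 0.75, 0.72 and 0.68. The summed immune level was 444, 535 and 461 CPM in cycling cells, against 289, 265 and 219 CPM in non-cycling cells. The rise was shared with mesenchyme and was not seen in the median of endothelium. The median log2 change of the 6 markers was 0.73 in epithelium, 0.74 in mesenchyme and −0.004 in endothelium of the same lungs. Limma's interaction test called 1 of the 6 as changed more in epithelium than in endothelium, beside 2.11% of all genes. The macrophage markers Csf1r and C1qb were low, at 9.92 and 19.7 CPM in cycling and 7.50 and 17.6 CPM in non-cycling cells.

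Cells with over 0.2% of their UMIs from mesenchyme, endothelium or immune markers were 16 of the cycling (11.8%) and 39 of the non-cycling cells (3.23%). With them left out, an alternative chosen after seeing the data, the median log2 change of the 6 immune markers was 0.01. These markers took part in choosing the cells left out, so their change was not tested again. In that setting 26 of 32 type 1 genes (median −1.04) and 15 of 28 type 2 genes were lower, and 4 early distal genes were higher and 1 lower, with Id2 and Etv5 among the higher (log2 changes 0.32 and 0.35).

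Of 5 tested mesenchyme markers (8 listed) Col1a2 was called higher and Mfap4 lower, and of 6 tested endothelium markers (8 listed) Esam was lower. Over all tested genes 12.3% were higher and 8.06% lower. Col1a2 lost the call without lung 2 or lung 3, Mfap4 without lung 1 or lung 2 and Esam without lung 1 or lung 3. The summed level was 567 CPM for mesenchyme and 166 CPM for endothelium in cycling cells, and 501 CPM and 176 CPM in non-cycling cells. The erythroid sum was 26.6 CPM in cycling and 29.2 CPM in non-cycling cells.

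Airway cells were not removed by the rule. Cells with 2 or more of 8 airway genes made up 36.0% of cycling and 22.6% of non-cycling cells, without a match for depth. Of 5 tested secretory genes (10 listed) the monooxygenase Cyp2f2 and the carbonyl reductase Cbr2 were lower, beside 8.06% of all tested genes. The call was lost for Cyp2f2 without lung 2 and for Cbr2 without lung 1 or lung 2. Of 3 tested ciliated genes limma and edgeR called 0, and 0 had an unadjusted p under 0.05. The basal keratin Krt15 was lower and lost the call without lung 1, and none of 8 neuroendocrine genes reached the filter. Without the cells that bear airway genes 27 type 1 genes (median −1.29) and 11 type 2 genes were lower and 3 early distal genes higher, and Sftpb was no longer called (log2 change −0.25).

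Whether a change differed from that in other dividing cells was tested as an interaction with the same contrast in mesenchyme (132 cycling and 1363 non-cycling cells) and in endothelium (261 cycling and 891 non-cycling cells) of the same lungs. Both comparisons share the epithelial values. The change differed from that in mesenchyme for 116 of 6811 genes (1.70%), 58 higher and 58 lower in epithelium, and from that in endothelium for 233 of 6722 genes (3.47%), 142 higher and 91 lower. Without lung 1, 2 or 3 there were 4, 22 and 12 such genes for mesenchyme and 65, 61 and 56 for endothelium, so these counts rest on all 3 lungs.

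Of the type 1 genes 6 of 18 tested had a lower change than in mesenchyme, and 10 of 16 had a lower and 1 a higher change than in endothelium, beside 0.852% and 1.35% of all genes lower and 2.11% higher in the endothelium comparison. Ager had a log2 change of −1.35 in epithelium, −0.37 in mesenchyme and −0.17 in endothelium (limma adjusted p of the differences 0.0119 and 0.000519). Its level was 91.0 CPM in cycling and 120 CPM in non-cycling mesenchyme, and the part of free RNA in such levels was not tested. Of the type 2 genes 1 of 16 and 2 of 18 had a lower change than in mesenchyme and endothelium.

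No early distal gene differed from mesenchyme (0 of 17) or endothelium (0 of 15) by limma, with 2 and 3 of them at an unadjusted p under 0.05 and 1 and 2 called by edgeR. Of 35 S phase genes limma and edgeR called 0 against mesenchyme, and 1 had an unadjusted p under 0.05. Against endothelium limma called 2 of 36 higher and 2 lower, beside 2.11% and 1.35% of all genes. Of these 36 genes 15 had an unadjusted p under 0.05 and edgeR called 11. Of 52 G2 and M phase genes 4 rose less in epithelium than in mesenchyme, and 3 of 52 rose less than in endothelium. Over all genes 0.852% and 1.35% had a lower change in epithelium. Of 14 genes of microtubules and the nuclear envelope 8 rose more in epithelium than in endothelium, beside 2.11% of all genes. Against mesenchyme 3 rose more and 1 less, beside 0.852% of all genes each way. Their median log2 change was 1.36 in epithelium, 1.28 in endothelium and 1.45 in mesenchyme.

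Col18a1, which encodes a basement membrane collagen, had 204, 219 and 229.8 CPM in cycling cells, against 93.7, 100.0 and 102 CPM in non-cycling cells of the epithelium (log2 change 1.07, SE 0.11). Its level averaged 68.3 CPM in cycling and 110 CPM in non-cycling endothelium, and 18.2 CPM in cycling and 35.4 CPM in non-cycling mesenchyme. The change in epithelium was higher than in endothelium by 1.69 (limma adjusted p = 1.60e-06) and than in mesenchyme by 1.76 (limma adjusted p = 0.00021). After thinning of the classes its epithelial log2 change was 0.35 and not called.

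**Figure D5:**
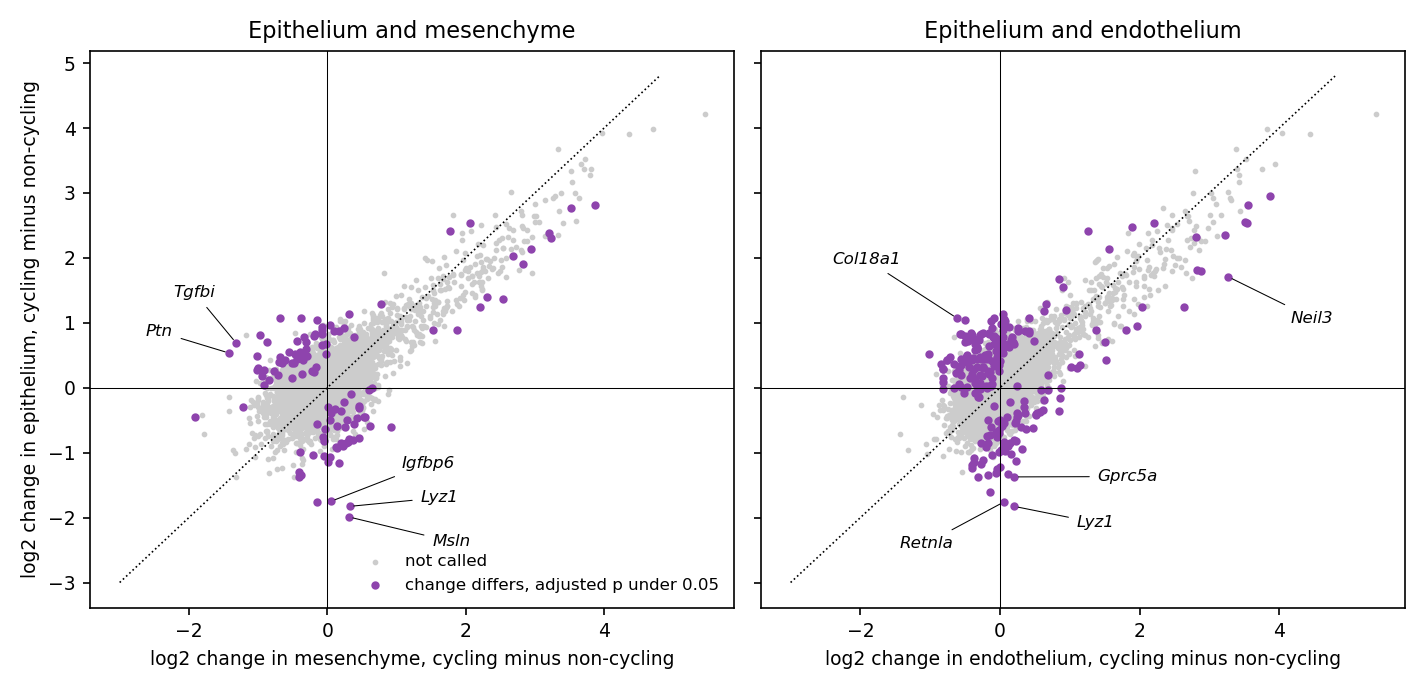
Change in epithelium (y axis) against change in mesenchyme (left) and endothelium (right), each as log2(mean CPM + 10) of cycling minus non-cycling cells, with 1 point per gene. Purple points differ between the cell classes at an adjusted p under 0.05 (116 and 233 genes), the diagonal line marks equal change, and the named genes have the 5 largest differences in each comparison.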

How the data were processed

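Single cells of 3 E17.5 lungs were measured in droplets with UMIs. The deposited values are a normalized expression signal, in which each UMI was scaled by the authors to the median UMI total of its sample. This is read from the values: all of them (100.0%) came out as whole UMIs within 0.01 when each cell was divided by its smallest value. Cell Ranger 1.3.1 and Seurat 3.0.0 are named in the submitters' processing notes, without their roles. No source used here gives the genome build.

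Lungs held 23996253, 20347458 and 21358915 UMIs. Per lung and class, cell-wise CPM were averaged and tested with limma 3.58.1 (trend, lung as block, mean of at least 10 CPM, Benjamini-Hochberg adjusted p), leaving out the 9 genes of the rule. A trend fit on 6 values leaves 2 residual degrees of freedom, and the prior added 16.7. Means per cell give every cell the same weight, and the summed UMIs weight deep cells more. Summed UMIs were tested with edgeR 4.0.16 and DESeq2 1.42.0 as alternatives (R 4.3.3). Lungs pair the classes because both come from the same lung; deviations of the 2 classes correlated at 0.039, 0.144 and 0.138. On simulated data with 7217 genes, 85.7% of 2-fold rises and 69.6% of 2-fold falls were found, and 22 of 184 calls were false. This share of false calls was above the limit set by the adjusted p. The simulation held fewer genes than were tested, so its rates may not hold for the measured data.

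Genes were named by 4 rules: the 12 largest changes each way outside the cycle and histone lists, the 5 largest called changes of each list, the 8 most abundant genes of each alveolar and early distal list, and the 5 largest differences of each interaction. A few genes that these rules chose are not reported here. Other named genes were chosen after their values were seen. The cell classes, gene lists and tests were chosen with earlier results of these data known. Sequences are from RefSeq.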

Additional observations from a re-analysis of the deposited data

Results flagged for a closer look

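In 10 cases the change between cycling and non-cycling cells differed between epithelium and another cell class of the same lungs, by limma's interaction test. These are the 5 largest differences in each comparison, given as the epithelial log2 change minus the other. Beside mesenchyme, the difference was −2.30 for Msln (adjusted p = 0.0282), −2.15 for Lyz1, −1.80 for Igfbp6, 2.01 for Tgfbi and 1.95 for Ptn, which encodes a heparin-binding growth factor. Tgfbi, an extracellular matrix protein, averaged 66.1 CPM in cycling and 35.3 CPM in non-cycling epithelium, and 312 CPM in cycling and 777 CPM in non-cycling mesenchyme, so its directions were opposite. The epithelial rise of Tgfbi was not called without lung 2. The epithelial change of Ptn was not called at all (log2 change 0.53, limma adjusted p = 0.131). In mesenchyme Ptn averaged 27.0 CPM in cycling and 88.3 CPM in non-cycling cells.

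Beside endothelium, the difference was −2.03 for Lyz1, −1.81 for Retnla, −1.58 for Gprc5a, 1.69 for Col18a1 and −1.56 for the DNA glycosylase Neil3. Neil3 was higher in cycling cells of both classes, at 29.3 CPM in cycling and 1.45 CPM in non-cycling epithelium, and 106 CPM in cycling and 2.00 CPM in non-cycling endothelium. Msln, Lyz1, Retnla and Gprc5a were at 12.9 to 35.9 CPM in the class they are set against here, Retnla reached 40.7 CPM in non-cycling mesenchyme, and the part of free RNA in those levels was not tested.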

How the results depend on the processing

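No gene called in both settings changed direction in any alternative. The counts of higher and lower genes were 538 and 243 with no filter, 508 and 407 at a filter of 50 CPM, 500 and 298 with DESeq2, 468 and 261 with classes called after thinning, 494 and 285 with cycling at 1 or more UMIs, and 25 and 6 without cells with 3 or more UMIs of other cell types, which left 2, 2 and 7 cycling cells. Leaving out 1 lung gave 647 to 839 higher and 376 to 506 lower genes. Without the lung as a replicate block 863 genes were higher and 493 lower, of which 831 and 474 were also called with it. Interactions numbered 184 with edgeR for mesenchyme, 4 to 22 there and 56 to 65 for endothelium with 1 lung left out. The cycling share was 2.66% after thinning and 5.03% at 4 or more UMIs, against 8.60%. The type 1 range differed by −10.03 points at 5000 UMIs. Cells with 2 or more core early distal genes differed by 11.6 points at 2000 UMIs and 3.70 points at 5000 UMIs. At the main depth, leaving out each lung gave early distal differences of −0.41 to 4.83 points (lowest without lung 1).

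Some named genes, called or not, changed direction in an alternative. Without cells with 3 or more UMIs of other types the log2 change was 0.68 for Lyz1, −0.85 for E2f1, −0.77 for Nfib, −1.22 for Tgfbi, 0.21 for Id3, −0.21 for Tpi1, −0.10 for Gapdh, −0.54 for Etv5, −0.12 for Foxp2, −0.032 for Foxp1, −0.58 for Laptm5 and −1.40 for Tyrobp. After thinning it was −0.074 for Sox9, −0.28 for Id2, −0.21 for Etv5, −0.081 for Foxp1, −0.086 for Col1a2 and −0.85 for Dlk1. Dlk1 had −0.041 with median-of-ratios scaling, −0.15 with edgeR, −0.16 with DESeq2, −0.16 with depth weights, −0.099 at 4 or more UMIs and −0.17 with Epcam and Cdh1. Foxp2 had −0.035 with median-of-ratios scaling, −0.19 with depth weights and −0.047 at 1 or more UMIs, and Foxp1 had −0.042 with edgeR and with DESeq2. Sftpc had 0.086 at 1 or more UMIs, 0.087 without airway cells and 0.016 without cells over 0.2% of UMIs of other types. Lpcat1 had 0.083 at 1 or more UMIs. Fgfr2 had 0.14 at 1 or more UMIs, 0.0079 with 4 of 5 epithelial genes, 0.034 without airway cells and 0.040 without cells over 0.2%. Without those cells the change was −0.17 for Col1a2, −0.14 for Laptm5 and −0.058 for Tyrobp. Mfap4 had 0.025 with 4 of 5 epithelial genes and 0.0045 with Epcam and Cdh1. With each lung left out, the log2 change ran between −0.068 and 0.065 for Dlk1, −0.17 and 0.15 for Foxp2, −0.025 and 0.16 for Foxp1, −0.23 and 0.041 for Fgfr2, and −0.28 and 0.0022 for Lpcat1. The causes were not tested. After thinning to 3000 UMIs the shares of cells rest on 45, 35 and 54 cycling cells of lungs 1, 2 and 3.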

Other observations

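Signalling lists held few tested genes, and 1 or 2 of each were called, beside 20.3% of all tested genes. Of 7 tested glucocorticoid response genes (8 listed) Klf9, a Krüppel-like factor, fell by 0.66 on the log2 scale and no other was called. Of 5 tested Wnt response genes (12 listed) the inhibitor Nkd1 fell by 0.58, with the call lost without lung 2. Of 4 tested Notch genes (10 listed) the target Hes1 fell by 0.35 and the feedback regulator Nrarp, which entered the test through the cycling cells, was higher (0.83), and both lost the call without lung 1. Of 8 tested genes of hedgehog, BMP and TGF-beta response (10 listed) Id3 fell by 0.35 and Tgfbi was higher (0.69).

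Immediate early and stress genes, which tissue digestion can raise, were lower where called. Of 18 tested genes (19 listed) 6 were lower and 0 higher by limma, 0 were higher at an unadjusted p under 0.05, and edgeR called 8 lower and 0 higher. Ier3 averaged 147 ± 5.82 CPM in cycling and 273 ± 8.08 CPM in non-cycling cells (log2 change −0.85), and Zfp36, which destabilises RNA, averaged 138 ± 65.1 CPM in cycling and 229 ± 28.5 CPM in non-cycling cells (log2 change −0.77). Of 85 tested ribosomal protein genes and their relatives by name (92 listed) 18 were lower and 0 higher by limma, 1 was higher at an unadjusted p under 0.05, and edgeR called 31 lower and 0 higher. The median log2 change was −0.06. Beside both lists, 8.06% of all tested genes were lower and 12.3% higher, with a median of 0.03. Rps19 had −0.29 and Rps27 −0.29.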
